A study of Triticum aestivum with 12 samples.

Results

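At 5 days after flowering (DAF), 200 wheat genes were expressed in replicates 1 and 2 of both cultivars and were low or undetected in replicate 3 of both cultivars. The genes were chosen from CPM (the share of a gene in the counts of its library on a scale that sums to 1e6). A candidate had at least 2 CPM in all 4 libraries of replicates 1 and 2 at 5 DAF, which 34537 of the 107891 TraesCS genes had (the counted table holds 120744 features). Candidates were ranked by the lowest of these 4 values divided by the higher of the replicate 3 values plus 0.1 CPM, and the first 200 were taken. The 5 DAF values therefore chose the members and are given as a description without a test. The levels at 14 DAF were not used in the choice and were used to ask whether the genes follow grain age or the share of a grain tissue.

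The study sequenced RNA of developing grains from the winter wheat cultivars TAM111 and TAM112, which have no treatment or introduced allele in the labels. Grains were harvested from field-grown plants at 5 DAF and at 14 DAF, which the labels write as days after pollination, with 3 libraries for each cultivar and stage (12 in all). A library holds RNA of several grains of similar size from 1 inflorescence, and the samples with the best RNA of each group were sequenced. Replicates are thus separate inflorescences, and p-values measure the spread between these samples only.

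In the wheat grain, the endosperm first forms as a syncytium, becomes cellular and then fills with starch and storage protein, while the maternal pericarp around it declines. A whole-grain library mixes these tissues and the embryo, so that the RNA of a filling endosperm takes a growing share of the reads as the grain ages. Bread wheat is hexaploid, and most genes are present as homeologs on the A, B and D subgenomes. Among factors known from cereal endosperm, Nuclear Factor-Y (NF-Y) proteins bind the CCAAT box as a complex of subunits, and Dof proteins are zinc finger factors of which some bind the prolamin box of storage protein genes.

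The total count was 31916077 to 40464882 per library, and replicate 3 had the highest total of its group at 5 DAF in both cultivars. At these depths 3 counts corresponded to 0.0741 to 0.094 CPM. The 20 most abundant features took 3.07% to 4.42% of the counts at 5 DAF, 7.13% to 11.9% in TAM111 at 14 DAF and 3.73% to 4.29% in TAM112 at 14 DAF. The deposited table gives gene identifiers and positions on the IWGSC RefSeq v1.0 assembly, without gene names, so that the genes are called by identifier here, and only those for which the study names a transcription factor family are given a role. Without names, the tissue label of grains could not be checked against marker genes.

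At 5 DAF, the members together held 2892 and 2674 CPM in replicates 1 and 2 of TAM111 and 126.2 CPM in replicate 3. In TAM112 they held 5491 and 6276 CPM in replicates 1 and 2 and 324.8 CPM in replicate 3. The median member had 6.72, 5.79 and 0.215 CPM in replicates 1, 2 and 3 of TAM111, and 9.69, 11.9 and 0.692 CPM in those of TAM112. In replicate 3, 72 members in TAM111 and 19 in TAM112 had at most 3 counts, of which 47 and 6 had none. The other candidates had medians of 9.8 CPM in replicate 3 of TAM111 and 10.9 CPM in that of TAM112, close to the 9.35 to 12.1 CPM of replicates 1 and 2. Depth was thus not lower in the replicate 3 libraries. In whole-grain RNA, fewer cells of a type and less RNA per cell cannot be told apart.

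**Figure D1:**
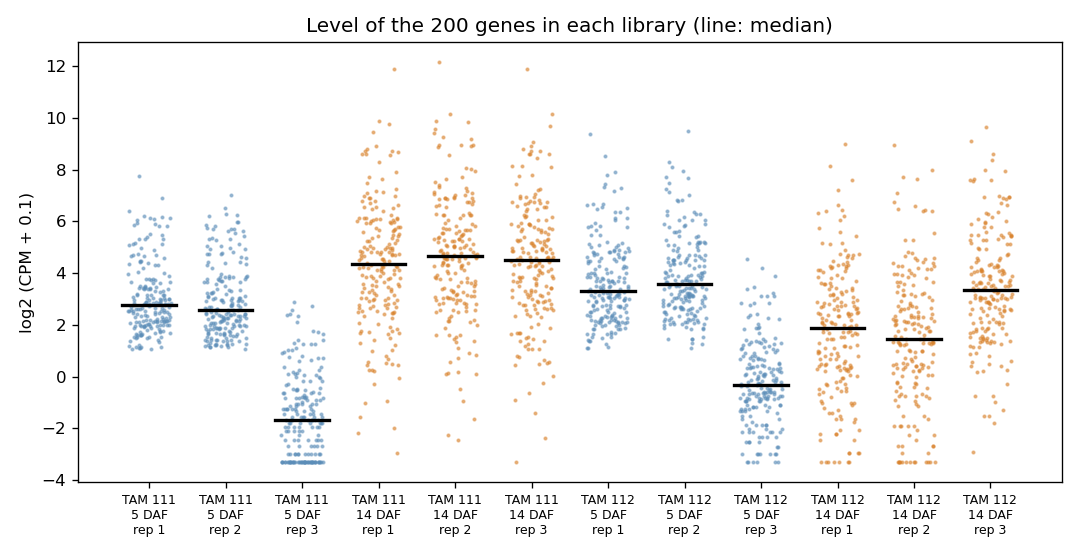
Each point is 1 of the 200 genes, the horizontal axis gives the 12 libraries by cultivar, stage and replicate, and the vertical axis is log2 of CPM plus 0.1. The black lines are medians, which lie lowest in replicate 3 of 5 DAF in both cultivars (0.215 and 0.692 CPM before the log) and highest in TAM111 at 14 DAF (20.1 to 25.1 CPM).

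The ratio that ranked the genes was at least 10 for 52 candidates, at least 20 for 22 and at least 50 for 1. That gene, TraesCS6A02G175100 (chromosome 6A, 189919840 to 189922912), had 46.0, 49.2 and 0 CPM in replicates 1, 2 and 3 of TAM111 at 5 DAF. In TAM112 it had 176, 249 and 0.247 CPM. It ranked first with a ratio of 132.5, followed by TraesCS7A02G361100 (49.6) and TraesCS7A02G361200 (36.6), which lie next to each other on chromosome 7A. TraesCS6B02G407700 (chromosome 6B, 682135997 to 682137587) had no count in replicate 3 of either cultivar, with 6.83 and 3.17 CPM in replicates 1 and 2 of TAM111 and 6.31 and 6.14 CPM in those of TAM112. The member with the highest 5 DAF level, TraesCS2D02G175600 (chromosome 2D, 119066592 to 119072213), had 214, 128 and 2.31 CPM in TAM111 and 657, 726 and 23.2 CPM in TAM112. The drop thus ran from abundant genes to genes near 2 CPM.

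The last members were TraesCS4D02G288100 with a ratio of 3.779 and TraesCS2D02G532800 with 3.776. The first genes outside were TraesCS7D02G359600 with 3.767 and TraesCS1B02G435000 with 3.743. The boundary therefore cuts a continuous series, in which 495 candidates had a ratio of at least 2.

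At 14 DAF, the members were high in TAM111 and low in TAM112. Their sum was 16355, 20701 and 16665 CPM in replicates 1, 2 and 3 of TAM111, and 2896, 2906 and 7037 CPM in those of TAM112. The median member had 20.1, 25.1 and 22.3 CPM in TAM111 and 3.56, 2.66 and 10.1 CPM in TAM112. The libraries of TAM111 were alike and all above those of TAM112, of which replicate 3 was the highest. Members took 1.64% to 2.07% of all counts in TAM111 and 0.29% to 0.704% in TAM112. With the most abundant member left out, the sums were still 12528 to 16183 CPM in TAM111 and 2652 to 6232 CPM in TAM112.

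Set against the 5 DAF libraries of the same cultivar, the mean 14 DAF level in TAM111 was above both replicates 1 and 2 for 156 of the 200 members (78%), beside 20.2% of the other candidates. It lay between these replicates for 12 members, between replicate 3 and the lower of them for 31, and at or under replicate 3 for 1. In TAM112 the mean 14 DAF level was above both replicates 1 and 2 for 30 members (15%), beside 32.3% of the other candidates. For 139 members (69.5%) it lay between replicate 3 and the lower of replicates 1 and 2, where 5.2% of the other candidates lay. The wide gap between the replicates that the rule required makes this band wider for members than for other genes. The most frequent combination, with 114 members, was above replicates 1 and 2 in TAM111 and between replicate 3 and these replicates in TAM112, and 28 members were above replicates 1 and 2 in both cultivars.

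**Figure D2:**
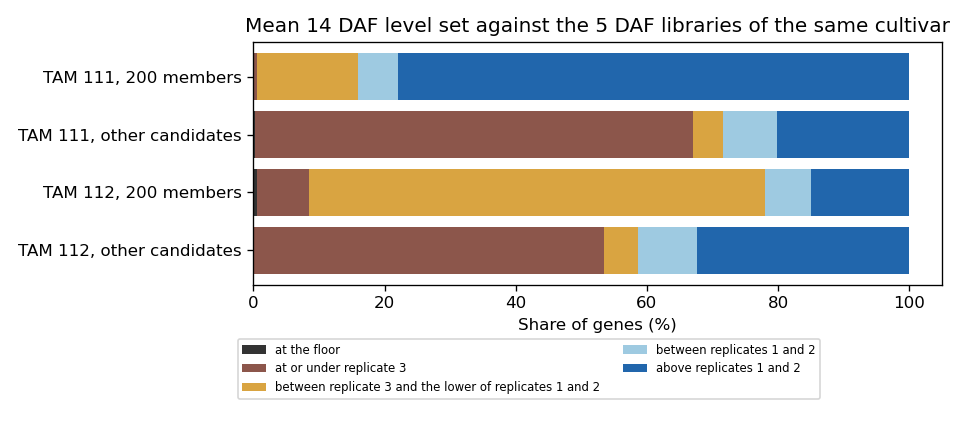
Bars give the share of genes, in percent, by where the mean 14 DAF level lay among the 5 DAF libraries of the same cultivar, for the 200 members and the 34337 other candidates. The dark blue share, above both replicates 1 and 2, is 78% of the members in TAM111 and 15% in TAM112.

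Measured as a ratio on the log2 scale with 0.1 CPM added, the median member stood 1.56 above the mean of replicates 1 and 2 of 5 DAF in TAM111 (164 of 200 above 0), beside a median of -0.41 for the other candidates. In TAM112 the median was -1.13 (35 of 200 above 0), beside -0.11 for the other candidates. Taken by library, the medians were 1.39, 1.59 and 1.49 for replicates 1, 2 and 3 of TAM111. They were -1.84, -1.99 and -0.35 for those of TAM112. Relative to replicates 1 and 2 of 5 DAF, the median member was thus higher at 14 DAF in TAM111 and lower in TAM112, which was not tested because these libraries chose the members. Over replicate 3 of 5 DAF, the median log2 ratio of the 14 DAF mean was 5.98 in TAM111 and 2.77 in TAM112. This ratio was below 0 for 1 member in TAM111 and for 17 members in TAM112. The median member was thus above replicate 3 in both cultivars, while its place against replicates 1 and 2 differed between them. Since the rule chose replicate 3 to be low, nothing is read from the ratio over it. Grain age, the share of a tissue and the RNA per cell cannot be told apart in these libraries.

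The highest members at 14 DAF were higher in every TAM111 library than in every TAM112 library. They were picked by their mean over the libraries of that stage, so nothing is read from this order. The same order held for 160 of the 200 members and for 14.6% of all genes tested. TraesCS4B02G328000 (chromosome 4B, 618646955 to 618647906, a single exon of 952 bases) had 3827, 4518 and 3765 CPM in TAM111 at 14 DAF and 192, 254 and 806 CPM in TAM112. At 5 DAF it had 3.85, 2.53 and 0 CPM in TAM111 and 56.4, 59.0 and 0.0247 CPM in TAM112. It made up 21.8% to 23.4% of the members' sum in TAM111 at 14 DAF and 6.64% to 11.4% in TAM112. The groups did not overlap at 14 DAF, and this gene was above its 5 DAF level in both cultivars.

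TraesCS2D02G414800 (chromosome 2D, 528807214 to 528808089) had 953, 760 and 1126 CPM in TAM111 at 14 DAF and 505, 492 and 393 CPM in TAM112, where replicate 3 was the lowest library. At 5 DAF it had at most 4.93 CPM in TAM111 and at most 39.2 CPM in TAM112. TraesCS6D02G089200 (chromosome 6D, 54238293 to 54240297) had 483, 916 and 385 CPM in TAM111 at 14 DAF and 12.2, 15.6 and 198 CPM in TAM112, and no count in replicate 3 of 5 DAF in either cultivar. TraesCS1A02G107200 (chromosome 1A, 104931188 to 104936751) had 704, 932 and 482 CPM in TAM111 at 14 DAF and 19.5, 20.8 and 82.2 CPM in TAM112. In none of these genes did the cultivars overlap at 14 DAF, while replicates 1 and 2 of TAM112 lay far under replicate 3 in TraesCS6D02G089200 and TraesCS1A02G107200.

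Of the other members with the highest 5 DAF levels, TraesCS6D02G168200 (chromosome 6D, 152268889 to 152271405) had 384, 607 and 447 CPM in TAM111 at 14 DAF and 24.4, 24.0 and 194 CPM in TAM112. TraesCS6B02G210000 (chromosome 6B, 276745218 to 276747653) had 313, 474 and 348 CPM in TAM111 and 16.5, 17.2 and 127 CPM in TAM112. TraesCS6A02G180400 (chromosome 6A, 204717346 to 204719247) had 239, 376 and 219 CPM in TAM111 and 14.4, 27.7 and 119 CPM in TAM112. The cultivars were apart in each of these group 6 genes, and replicate 3 was the highest TAM112 library. Among the 200 members, TAM111 lay above TAM112 in 160 and replicate 3 was the highest TAM112 library in 180. The shares of all genes tested were 14.6% and 29.7%.

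TraesCS1D02G107600 (chromosome 1D, 100651018 to 100658398) had 408, 578 and 285 CPM in TAM111 at 14 DAF and 78.9, 84.1 and 327 CPM in TAM112, where replicate 3 lay inside the TAM111 range. TraesCS1B02G124600 (chromosome 1B, 151075449 to 151079911) had 381, 500.3 and 285 CPM in TAM111 and 72.9, 85.5 and 255 CPM in TAM112. TraesCS1A02G253200 (chromosome 1A, 444768026 to 444776770) had 419.9, 479 and 417 CPM in TAM111 and 147, 200.6 and 243 CPM in TAM112. The cultivars were apart in the last of these genes and in TraesCS1B02G124600, but not in TraesCS1D02G107600.

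Between the cultivars at 14 DAF, the comparison that the rule did not use, the members were lower in TAM112. Every TAM111 library was above every TAM112 library for 160 of the 200 members, as it was for 14.6% of all genes tested. The reverse held for 4 members, beside 46% of all genes tested. These orders are of CPM, without the TMM scaling of the fits. In CPM the median gene tested was 0.42 higher on the log2 scale in TAM112, and 68.8% were above 0. The shares of 14.6% and 46% carry this shift. In the model fitted to all 12 libraries, the median log2 fold change of the members (TAM112 over TAM111) was -2.53, with 193 of 200 below 0, beside a median of -0.01 over the 65080 genes tested. Only 2 members passed an absolute log2 fold change of 1 and an adjusted p of 0.01, both lower in TAM112. The test was the quasi-likelihood F test of edgeR (adjusted by Benjamini-Hochberg). An unadjusted p under 0.05 was reached by 120 members, and the share of all genes at that cutoff is not given here. Of all genes tested 14.5% were called, 7.45% lower and 7.02% higher.

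The model of 12 libraries estimates 1 spread per gene from all groups, and the rule chose genes whose 5 DAF libraries lie far apart. In the fit of the 6 libraries of 14 DAF alone, 121 of the 196 members tested were called, 117 lower in TAM112 and 4 higher. The background in this fit was 19.4% of 61351 genes, 10% lower and 9.33% higher. The median of the members was -2.52, with the middle of the distribution from -3.01 to -1.96 (quartiles), beside 0.00 for all genes tested. In the fit of 12 libraries without the replicate 3 libraries of 5 DAF, an alternative chosen after seeing the data, 149 members were called, 146 of them lower, beside a background of 18.2%. The median of the members was -2.53 in that fit as well, so that the number of calls differed between these fits and the median hardly moved.

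Single libraries moved the count of the 14 DAF fit. It was 187 (183 lower) without replicate 3 of TAM112, where the median log2 fold change also moved from -2.52 to -3.51, 72 without replicate 2 of TAM111 and 72 without replicate 3 of TAM111. With library sizes as the only scaling, the median of all genes in the 14 DAF fit moved to 0.46 and that of the members to -2.09, with 189 of 196 below 0. In the fit of 12 libraries the same scaling called 0 members lower and 2 higher in TAM112, with 192 of 200 below 0. Leaving out a library or changing the scaling can also move the share of all genes called, which is not given here for these fits. The counts are therefore not set against a background, and nothing about the members is read from their changes.

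**Figure D3:**
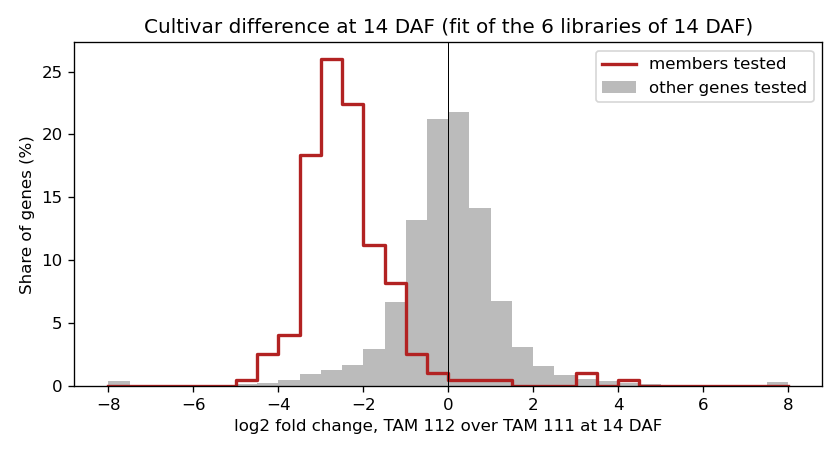
The horizontal axis is the log2 fold change of TAM112 over TAM111 at 14 DAF in the fit of the 6 libraries of that stage, in bins of 0.5 with values beyond the axis gathered in the end bins, and the vertical axis is the share of genes in percent. The 196 members tested (line) center on -2.52, and the other genes tested (grey bars) center near 0.

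The 2 members called in the fit of 12 libraries had different courses. TraesCS3A02G136300 (chromosome 3A, 113921279 to 113922749) had 40.2, 40.3 and 4.19 CPM in TAM111 at 5 DAF and 43.8, 36.7 and 4.84 CPM in TAM112. At 14 DAF it had 11.3, 18.2 and 9.57 CPM in TAM111 and 0.588, 0.495 and 2.3 CPM in TAM112, with a log2 fold change of -4.03 (SE 0.98, adjusted p = 0.00841). Its level was thus lower at 14 DAF than in replicates 1 and 2 of 5 DAF in both cultivars. TraesCS1B02G479000 (chromosome 1B, 687078233 to 687084562) had 3.92, 3.59 and 0.644 CPM in TAM111 at 5 DAF and 3.44, 3.55 and 0.371 CPM in TAM112. It reached at 14 DAF 11.0, 12.4 and 7.15 CPM in TAM111 and 0.392, 0.77 and 2.46 CPM in TAM112, with a log2 fold change of -3.56 (SE 0.86, adjusted p = 0.00815). With 1 library left out at a time, the adjusted p of TraesCS3A02G136300 ranged from 0.00291 to 0.0391 and its call was lost in 9 of 12 fits. That of TraesCS1B02G479000 ranged from 0.0025 to 0.0384, and its call was lost in 8 of 12. Both were called in the fit of the 14 DAF libraries.

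The 4 members called higher in TAM112 in the fit of the 14 DAF libraries were singled out after their values were seen. TraesCS3A02G446600 (chromosome 3A, 686834648 to 686839665) had 9.49, 4.28 and 6.18 CPM in TAM111 at 14 DAF and 86.6, 137 and 68.5 CPM in TAM112 (log2 fold change 3.42, SE 0.34). TraesCS1D02G306900 (chromosome 1D, 403663846 to 403664528) had 1.28, 1.53 and 2.48 CPM in TAM111 and 53.9, 19.1 and 80.4 CPM in TAM112 (log2 fold change 4.42, SE 0.55). The others were TraesCS1D02G403100 (log2 fold change 3.31, SE 0.63) and TraesCS7A02G405600 (log2 fold change 1.103, SE 0.18). All 4 had more CPM in TAM112 than in TAM111 in every replicate at 5 DAF. So had most members: 178 of 200 in the mean of replicates 1 and 2, and 168 of 200 in replicate 3. Among the other candidates the shares were 60.7% and 64%. Nothing is read from these 5 DAF values, which the rule used.

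Within TAM112 at 14 DAF, replicate 3 stood above replicates 1 and 2 for 180 of the 200 members, beside 29.7% of all genes tested. The median member was 1.47 higher on the log2 scale in replicate 3 than in the mean of the other libraries (188 of 200 above 0), beside a median of -0.05 for the other candidates. In TraesCS6A02G175100, the first member in rank, the TAM112 libraries had 26.8, 25.2 and 192 CPM at 14 DAF and those of TAM111 had 444, 677 and 542 CPM. In TraesCS7A02G030000 (chromosome 7A, 12181435 to 12182283) replicates 1 and 2 of TAM112 had 0.028 and 0 CPM and replicate 3 had 9.24 CPM, inside the TAM111 range of 3.15 to 9.75 CPM. TraesCS2A02G072100 (chromosome 2A, 32026318 to 32028546) was listed at 0 in replicates 1 and 2 of TAM112 and had 2.77 CPM in replicate 3. The like held for other members of low level. TraesCS6D02G324600 (chromosome 6D, 431208296 to 431210629) had 0.112, 0 and 5.32 CPM in TAM112 and 5.03, 15.1 and 4.92 CPM in TAM111, so that replicate 3 lay inside the TAM111 range. TraesCS4A02G231400 (chromosome 4A, 540957691 to 540959559) had 0.14, 0 and 4.73 CPM in TAM112 and 7.7, 15.8 and 4.86 CPM in TAM111, with no overlap. Members thus separated libraries of 1 group at 14 DAF in TAM112 as well, with replicate 3 on the high side there and on the low side at 5 DAF. The sources used here do not say whether a replicate number names the same plants at both stages.

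**Figure D4:**
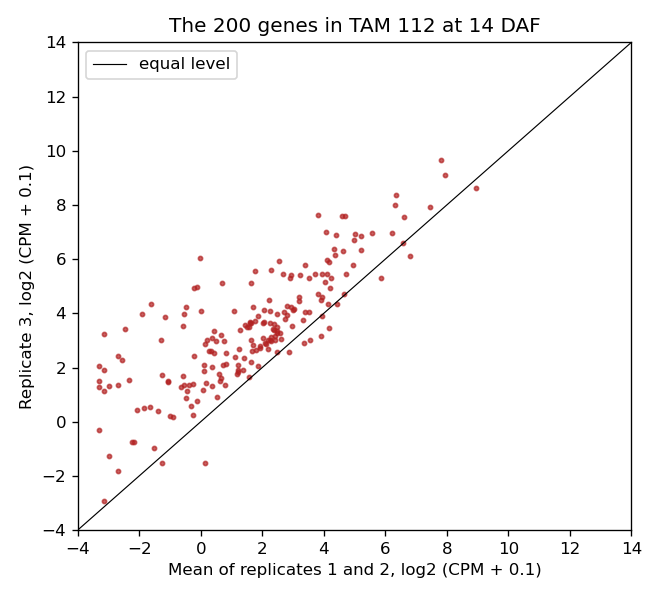
Each point is 1 of the 200 genes in TAM112 at 14 DAF, with the mean of replicates 1 and 2 on the horizontal axis and replicate 3 on the vertical axis, both as log2 of CPM plus 0.1. The line marks equal levels, and 188 points lie above it.

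In TAM111 at 14 DAF the spread was smaller. Replicate 2 was the highest of its group for 110 members, beside 19.2% of all genes tested, but by a median of only 0.16 on the log2 scale over the mean of the other libraries. At 5 DAF replicates 1 and 2 differed by a median of 0.00 on the log2 scale in TAM111 and 0.21 in TAM112.

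The study's network tables name 34 transcription factors, chosen by the study on these samples and so no independent evidence of direction. Of these, 15 were candidates and 9 were members. The members included all 3 NF-Y genes of the tables, all 3 C2C2_Dof genes, the CCAAT_Dr1 gene and 2 of 6 MYB-related genes. None of the 12 NAC, 3 AP2/EREBP, 3 HD-Zip_IV, 1 HD-Zip_I_II and 2 bHLH genes was a member. Of the 25 factors that were not members, 19 had under 2 CPM in a replicate 1 or 2 library of 5 DAF and could not have been chosen. These 19 included every NAC, AP2/EREBP and HD-Zip_I_II gene, so that their absence says nothing of these families. In 8 of the 19, both replicate 3 libraries were lower than every replicate 1 and 2 library. The HD-Zip_IV genes were candidates, with ratios of 2.19 (TraesCS3A02G325800), 1.87 (TraesCS3B02G354900) and 0.16 (TraesCS4A02G231300).

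The NF-Y genes are homeologs that the study places closest to rice OsNF-YC11 and OsNF-YC12, which in rice belong to a complex that acts on grain filling. TraesCS7B02G248300 (chromosome 7B, 458611206 to 458612983) had 56.4, 63.4 and 0 CPM in replicates 1, 2 and 3 of TAM111 at 5 DAF and 102, 151 and 3.95 CPM in those of TAM112. At 14 DAF it had 423, 491 and 422 CPM in TAM111 (445 ± 39.9, SD, n = 3) and 48.0, 47.0 and 124 CPM in TAM112 (72.9 ± 44.0). The cultivars did not overlap at 14 DAF, and TAM111 was 6.1-fold higher.

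TraesCS7A02G336700 (chromosome 7A, 492780503 to 492782168) had 44.8, 51.6 and 0.268 CPM in TAM111 at 5 DAF and 81.7, 114 and 4.52 CPM in TAM112. By 14 DAF the levels were 392, 490 and 393 CPM in TAM111 and 35.4, 39.1 and 117 CPM in TAM112. TraesCS7D02G344400 (chromosome 7D, 441981013 to 441982621) had 29.3, 30.2 and 0 CPM in TAM111 at 5 DAF and 55.5, 77.5 and 2.00 CPM in TAM112. At 14 DAF it had 201.1, 265 and 214 CPM in TAM111 and 19.1, 21.7 and 71.7 CPM in TAM112. In all 3 homeologs the order of the groups was thus 14 DAF in TAM111, then replicates 1 and 2 of 5 DAF and 14 DAF in TAM112, then replicate 3 of 5 DAF. Per length, the A and B homeologs had mean levels of 301 and 298 TPM (counts divided by gene length and scaled to the same sum in each library) in TAM111 at 14 DAF, and the D homeolog had 169 TPM.

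In the fit of 12 libraries the NF-Y genes had log2 fold changes of -3.20 (SE 1.29), -3.08 (SE 1.44) and -3.06 (SE 1.39) for the A, B and D homeologs between the cultivars at 14 DAF, and none was called (adjusted p = 0.0711, 0.115 and 0.104). The values in the fit of the 14 DAF libraries were -3.18 (SE 0.51), -3.05 (SE 0.44) and -3.04 (SE 0.54), and all 3 were called (adjusted p = 0.0021, 0.00132 and 0.00324). The standard errors, more than the fold changes, differed between the fits. In the 14 DAF fit 117 of the 196 members tested were called lower in TAM112, beside 10% of all genes tested. The study reports the A homeolog as differentially expressed between the cultivars, without naming the stage there. Its model of all 12 samples used other corrections of the fold changes and p-values than the fit of 12 libraries here.

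The C2C2_Dof genes lie on the group 5 chromosomes. TraesCS5A02G155900 (chromosome 5A, 334262255 to 334266121) had 7.64, 9.21 and 0 CPM in TAM111 at 5 DAF and 14.9, 18.5 and 0.297 CPM in TAM112. The levels at 14 DAF were 63.9, 70.6 and 59.0 CPM in TAM111 and 6.33, 6.44 and 16.6 CPM in TAM112. TraesCS5B02G154100 (chromosome 5B, 283623197 to 283625483) had 7.21, 8.35 and 0.0268 CPM in TAM111 at 5 DAF and 15.4, 20.3 and 0.593 CPM in TAM112. These genes followed the same group order as the NF-Y genes.

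At 14 DAF TraesCS5B02G154100 had 68.6, 76.0 and 72.3 CPM in TAM111 and 9.54, 8.39 and 23.9 CPM in TAM112. TraesCS5D02G161000 (chromosome 5D, 251063289 to 251065090) had 12.2, 14.8 and 0.429 CPM in TAM111 at 5 DAF and 19.0, 22.8 and 2.35 CPM in TAM112. At 14 DAF it had 90.3, 102 and 94.4 CPM in TAM111 and 8.82, 6.27 and 18.8 CPM in TAM112. The level in TAM111 at 14 DAF was 6.6-fold, 5.18-fold and 8.47-fold that in TAM112 for the A, B and D genes. In the fit of the 14 DAF libraries their log2 fold changes were -3.17 (SE 0.42), -2.82 (SE 0.42) and -3.53 (SE 0.42), and all 3 were called, while the fit of 12 libraries called none.

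TraesCS7D02G216600 (chromosome 7D, 176442944 to 176444082), of the CCAAT_Dr1 family, whose proteins share the histone fold of NF-Y subunits, had 19.7, 26.3 and 0.349 CPM in TAM111 at 5 DAF and 30.9, 59.4 and 3.53 CPM in TAM112. Its 14 DAF levels were 61.8, 66.0 and 59.7 CPM in TAM111 and 9.94, 6.05 and 17.7 CPM in TAM112. Its mean 14 DAF level was 2.71 times that of replicates 1 and 2 of 5 DAF in TAM111, where the NF-Y genes had 7.43 to 8.82 times.

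The MYB-related members, of a family that binds DNA through a MYB repeat, were TraesCS4A02G006100 (chromosome 4A, 3798857 to 3799913) and TraesCS4B02G299000 (chromosome 4B, 585023591 to 585024532). TraesCS4A02G006100 had 25.7, 29.9 and 29.6 CPM in TAM111 at 14 DAF and 2.6, 3.47 and 12.4 CPM in TAM112. TraesCS4B02G299000 had 38.1, 42.4 and 48.1 CPM in TAM111 and 6.21, 7.04 and 13.7 CPM in TAM112. All 9 factors had no overlap between the cultivars at 14 DAF, with replicate 3 the highest library of TAM112 in each. Every TAM111 library was above every TAM112 library in 160 of the 200 members and in 14.6% of all genes tested. Replicate 3 was the highest TAM112 library in 180 of the 200 members and in 29.7% of all genes tested.

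**Figure D5:**
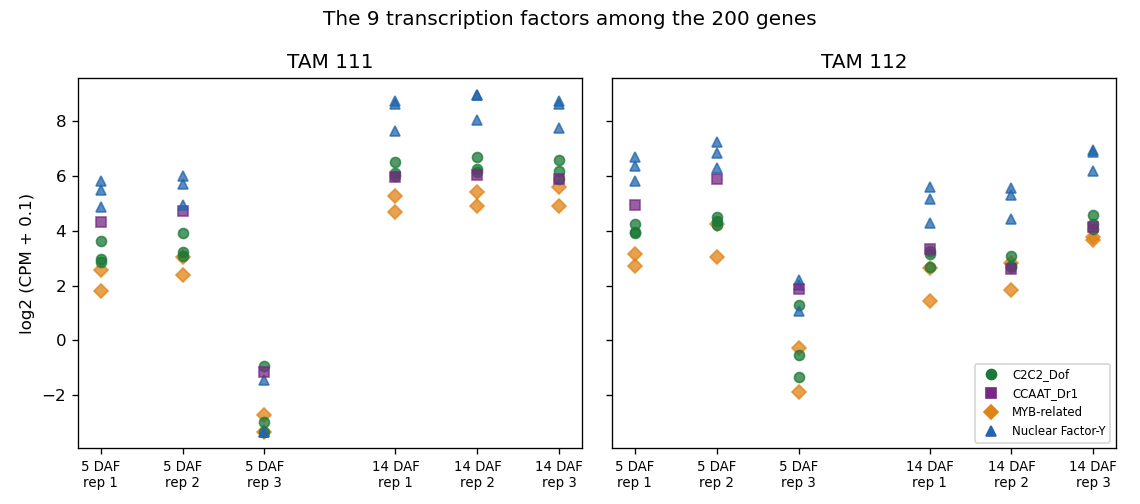
Points give the level of the 9 transcription factors among the members as log2 of CPM plus 0.1, by stage and replicate on the horizontal axis, for TAM111 (left) and TAM112 (right), with 1 marker shape and color per family. In both cultivars the point of 5 DAF replicate 3 lies lowest within each gene, an order that the rule set among the 5 DAF libraries. At 14 DAF the TAM111 points lie above the TAM112 points of the same gene (423, 491 and 422 CPM against 48.0, 47.0 and 124 CPM for TraesCS7B02G248300).

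Of the 34 factors, 7 were called between the cultivars at 14 DAF in the fit of 12 libraries, 6 higher in TAM111 and 1 higher in TAM112, and none of these was a member. The background in that fit was 14.5% of all genes tested, 7.45% lower and 7.02% higher in TAM112. The fit of the 14 DAF libraries called 23 of the 34 factors, of which 21 were lower in TAM112, all 9 members and 12 others among them. Its background was 19.4% of all genes tested, 10% lower and 9.33% higher in TAM112.

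Some members were lower at 14 DAF than in replicates 1 and 2 of 5 DAF in both cultivars. TraesCS3D02G137100 (chromosome 3D, 95839191 to 95840522), singled out after its values were seen, had 13.3, 13.4 and 1.02 CPM in TAM111 at 5 DAF and 16.5, 19.1 and 1.46 CPM in TAM112. At 14 DAF it had 0.0297, 0.111 and 0.0917 CPM in TAM111 and 0.028, 0 and 0.0311 CPM in TAM112. It was the 1 member at or under replicate 3 in TAM111 and at the floor, at most 3 counts in every library, in TAM112. Another 16 members lay at or under the level of 5 DAF replicate 3 in TAM112. Their medians at 14 DAF were 1.19, 2.46 and 1.51 CPM in TAM111 and 0.182, 0.138 and 1.04 CPM in TAM112, and all 16 were between replicate 3 and replicates 1 and 2 in TAM111. The highest of the 12 libraries was a TAM111 library of 14 DAF for 150 members, a TAM112 library of 5 DAF for 36, a TAM111 library of 5 DAF for 9 and a TAM112 library of 14 DAF for 5.

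The 28 members above replicates 1 and 2 in both cultivars at 14 DAF had medians of 65.9, 116 and 80.5 CPM in TAM111 and 20.1, 15.2 and 41.4 CPM in TAM112. At 5 DAF their medians were 4.23, 3.51 and 0.188 CPM in TAM111 and 7.17, 9.8 and 0.383 CPM in TAM112. TraesCS5B02G527300 (chromosome 5B, 686469415 to 686472261), the fifth in rank, had 178, 128 and 110 CPM in TAM111 at 14 DAF and 23.9, 9.13 and 35.4 CPM in TAM112. TraesCS2D02G061300 (chromosome 2D, 25318450 to 25319590) had 153, 157 and 270 CPM in TAM111 and 25.9, 38.8 and 122 CPM in TAM112. The cultivars did not overlap in either gene, with TAM111 above, as in 160 of the 200 members and 14.6% of all genes tested.

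The members had shorter gene models than the other candidates, with a median summed exon length of 1204 bases beside 1710 bases and a median of 2 exons beside 5. A single exon was annotated for 49 members (24.5%), beside 10.9% of the other candidates. Members lay on all 3 subgenomes (67 on A, 58 on B, 70 on D and 5 unplaced). These were 33.5%, 29%, 35% and 2.5% of the members, beside 32.7%, 32.6%, 33.9% and 0.857% of all candidates. The chromosomes with the most were 7D with 15, 7A with 14 and 2D with 14. These were 7.5%, 7% and 7% of the members, beside 4.81%, 4.68% and 5.68% of all candidates. Another annotated feature overlapped 2 members (1%), beside 4.27% of the other candidates. These properties were not tested against the drop in replicate 3.

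Members were found next to each other in 11 pairs, which involved 20 genes. On chromosome 4B, TraesCS4B02G011000, TraesCS4B02G011100, TraesCS4B02G011200 and TraesCS4B02G011300 followed each other from 7308581 to 7384405, each with 6 exons. TraesCS4B02G011200 had the highest CPM of them in replicates 1 and 2 of 5 DAF, with 10.5, 13.0 and 0.322 CPM in TAM111 at 5 DAF and 9.72, 15.0 and 1.16 CPM in TAM112. It reached at 14 DAF 13.4, 13.8 and 18.9 CPM in TAM111 and 3.02, 4.37 and 6.91 CPM in TAM112. All of the 4B genes were called lower in TAM112 in the fit of the 14 DAF libraries (log2 fold changes from -2.13 for TraesCS4B02G011200 to -1.69 for TraesCS4B02G011100). The adjacent pair TraesCS4D02G009300 and TraesCS4D02G009400 on chromosome 4D, also with 6 exons each, had log2 fold changes of -2.17 and -2.16 and was called as well. In that fit 117 of the 196 members tested were called lower, beside 10% of all genes tested.

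Adjacent pairs on chromosomes 7A and 7D were both among the first 34 genes in rank. TraesCS7A02G361100 had 70.2, 121 and 72.2 CPM in TAM111 at 14 DAF and 10.6, 4.62 and 42.8 CPM in TAM112. TraesCS7D02G362000 had 67.8, 121 and 75.5 CPM in TAM111 and 12.8, 5.56 and 42.3 CPM in TAM112. These genes were thus nearly level in each of these libraries, while the others of the pairs were not. TraesCS7A02G361200 had 31.2, 48.9 and 36.4 CPM in TAM111 at 14 DAF and 4.39, 1.87 and 18.7 CPM in TAM112. TraesCS7D02G361900 (chromosome 7D, 464360474 to 464361436) had 17.0, 30.5 and 20.8 CPM in TAM111 and 1.85, 1.1 and 8.99 CPM in TAM112. Adjacent genes and homeologs can be near-identical copies, and how reads with several matches were counted is not given in the sources used here, so that values of single genes in such runs are uncertain and the genes are not independent of each other.

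The remaining comparisons share the 5 DAF libraries with the rule, and nothing is read from their counts. Between the cultivars at 5 DAF, edgeR called 0 members (4 at an unadjusted p under 0.05, and 0 by DESeq2), beside 3.39% of all genes tested (1.45% higher and 1.93% lower in TAM112). From 5 to 14 DAF in TAM111, 18 members were called, 17 higher and 1 lower at 14 DAF, beside 24% of all genes (13.4% higher and 10.6% lower). In TAM112, 5 members were called, 1 higher and 4 lower, beside 21% of all genes (11.8% higher and 9.27% lower).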

How the data were processed

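Reads were trimmed by the authors (Cutadapt, Trimmomatic), aligned to the IWGSC RefSeq assembly with HISAT2 and assigned to genes with featureCounts of Subread. The deposited values are whole-number counts per gene, not normalized, for 12 libraries in 1 table, of which 0 columns with library values were left out and 0 lines lacked a gene. Libraries came from poly-A RNA and a directional kit. The strand and multiple-match settings of the counting are not given in the sources used here.

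Libraries were grouped by cultivar and stage from the labels. CPM used the total count of each library. TPM used the lengths in the table. The members and lists were chosen with earlier results of these data known. Genes passing filterByExpr (65080, all 200 members among them) were scaled by TMM and fitted with 1 coefficient per group to all 12 libraries (edgeR 4.0.16 in R 4.3.3, tables in Python 3.11.15). Contrasts were tested with the quasi-likelihood F test and adjusted by Benjamini-Hochberg over all genes tested, and a call needed a log2 fold change beyond 1 in either direction with an adjusted p under 0.01. The standard error of a fold change was obtained from its size and the F statistic. The floor was 3 counts, which covers counting error only. The code was tested on simulated data.

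Alternatives were DESeq2 1.42.0, glmTreat, other scalings, filters and membership rules, a replicate block, fits of the compared libraries only and each library left out. The deviations of same-numbered libraries from their group means correlated over 0.1 in all 3 pairs between the cultivars at 5 DAF (0.449, 0.382 and 0.571). A replicate 3 that differs in both cultivars adds to all 3. Pairing by number thus rested on the values alone and entered only the fits with a replicate block. The other fits held no replicate term. No library was a duplicate of another.

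The text names the 12 members first in rank, the 8 highest at 5 DAF, the highest at 14 DAF, those called between the cultivars at 14 DAF, the genes on either side of the rank limit and the transcription factors of the study's tables, each with values only where it adds to a result. Lists by gene description and promoter motifs were planned but are not reported, since 0 identifiers matched the reference table.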

Additional observations from a re-analysis of the deposited data

How the results depend on the processing

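The share of members called between the cultivars at 14 DAF was 1% in the fit of 12 libraries. It was 11.5% with DESeq2, 0% with glmTreat, 4% without a filter, 4.5% with at least 10 counts in every library, 31% at an adjusted p under 0.05, and 3.5% and 5.5% with an offset of 1 CPM or a minimum of 5 CPM in the rule. With library sizes alone it stayed at 1%, but the 2 calls were then higher in TAM112. It was 60.5% in the fit of the 14 DAF libraries and 74.5% without both replicate 3 libraries of 5 DAF. Chosen after seeing the data, other membership rules within the 14 DAF fit gave 61% (first 100 genes), 61% (offset), 62.5% (minimum) and 58.5% (TMM-scaled CPM), and library sizes alone gave 54%, glmTreat 24.5% and DESeq2 70.5%. With 1 library left out, the range was 0% to 16.5% in the fit of 12 libraries and 36% to 93.5% in the 14 DAF fit. Of all genes tested, 14.5% were called in the fit of 12 libraries and 19.4% in the 14 DAF fit. Without both replicate 3 libraries of 5 DAF it was 18.2%. The other settings can also change the share over all genes, which is not given here, so their shares are not set against a background.

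For the stages in TAM111 the share was 9%, and 18% with DESeq2, 5.5% with 10 counts in every library, 38% at an adjusted p under 0.05, 22% with the compared libraries only, 46% without both replicate 3 libraries of 5 DAF and 4% to 27% with 1 library left out. For TAM112 it was 2.5%, and 5.5% with DESeq2, 0.5% with glmTreat, 1% with 10 counts in every library, 11% at an adjusted p under 0.05, 5.5% and 8.5% with the other offset or minimum, 32.5% without both replicate 3 libraries and 0.5% to 8% with 1 library left out. Between the cultivars at 5 DAF it was 0%, and 2.5% without both replicate 3 libraries. In the main fit, 24% of all genes tested were called between the stages in TAM111 and 21% in TAM112. Between the cultivars at 5 DAF it was 3.39%. The shares over all genes under the other settings are not given here, and the causes were not tested.

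With the replicate number as a block, the share called at 14 DAF was 0%, or 48.5% within the 14 DAF fit, and 1.5% for the stages in TAM112. The numbers are only shared there, since the correlations between the cultivars at 14 DAF were 0.151, -0.28 and -0.11. At 5 DAF, where the deviations of same-numbered libraries were correlated between the cultivars, the block left 0 calls. The shares over all genes with a block are not given here.

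The share of members above replicates 1 and 2 of 5 DAF moved by less than 1.5 times under every alternative run, with 77.5% to 80% in TAM111 and 11% to 19% in TAM112 when 1 library of 14 DAF was left out. Of the 200 members, 146 remained with an offset of 1 CPM, 100 with a minimum of 5 CPM and 186 with TMM-scaled CPM. Groups of 3 limit what any test here can show.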

Other observations

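The same rule turned around ranks genes that were high in replicate 3 of both cultivars at 5 DAF. Of its 36168 candidates, 125 had a ratio of at least 2 and 0 had a ratio of at least 5, where the members' rule gave 495 and 130. The first 200 of them summed to 2679, 3059 and 8089 CPM in replicates 1, 2 and 3 of TAM111 at 5 DAF and to 2096, 1220 and 7782 CPM in those of TAM112. At 14 DAF they summed to 4157, 3082 and 4648 CPM in TAM111 and to 5349, 3161 and 2637 CPM in TAM112. Their median log2 ratio of the 14 DAF mean over replicate 3 of 5 DAF was -3.34 in TAM111 and -3.19 in TAM112. Since the turned-around rule chose replicate 3 to be high, nothing is read from this ratio. At 14 DAF every TAM111 library of 14 DAF was above every TAM112 library for 21 of 200, beside 14.6% of all genes tested. It was below every TAM112 library for 42 of 200, beside 46%. These orders are of CPM, in which the median gene tested was higher in TAM112.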
